A study of Mus musculus with 8 samples.

Results

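The Reg genes encode small secreted proteins with a C-type lectin fold, and Retnlb encodes resistin-like molecule beta, a secreted cysteine-rich protein of goblet cells. The group examined was Reg1, Reg2, Reg3a, Reg3b, Reg3d, Reg3g, Reg4 and Retnlb, 8 of the 35715 gene names on the array. Members were taken by name, each through its single non-control probe. The values come from 8 Agilent whole-genome arrays with 1 colour, which measured RNA from the ileum, the lowest stretch of the small bowel, of female mice. All mice carried, per the strain label, Rosa26rtTA/+ and Hprt Myc-Tnk1tg. The first gives a transcription activator that works only in the presence of doxycycline. The second is a Myc-tagged transgene for the tyrosine kinase TNK1, inserted at Hprt, a gene of the X chromosome. One group of 4 arrays came from mice injected intraperitoneally with doxycycline, 50 µg per g of body weight in 100 µl, and the other group of 4 from mice injected with 100 µl of 0.9% NaCl (called saline here). Tissue was taken 24 hours later. The labels give no age, and they call the saline mice wild-type in the source name while the strain field gives them the transgenes. No group received doxycycline without the transgenes, so effects of the drug and of TNK1 cannot be told apart. Nothing in the labels says that each array holds a separate animal, so the spread behind each p-value may be technical.

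REG3B and REG3G are made by enterocytes and Paneth cells of the small intestine and act against bacteria near the epithelium. REG3G binds peptidoglycan of Gram-positive bacteria. Both genes are known to respond to bacterial colonization, through MyD88 and through interleukin 22 and STAT3. Reg1, Reg2 and Reg3d are best known from the pancreas, and Reg1 also from the upper small intestine. Reg4 marks secretory cells, including enteroendocrine cells and crypt-base secretory cells of the colon. Retnlb is known to be induced by the type 2 cytokines interleukin 4 and interleukin 13 and by bacteria.

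The probes through which the members were read are shown because every value below is the brightness of 1 such spot. Each is 60 bases long, and the longest run of bases that any pair of member probes had in common was 8. The opening 30 bases of each, written 5′ to 3′ as in the scanner files, are these.
Reg3b: gtgaagactcacctagaaaaagcattttct
Reg3g: gagtacagaattgacatcatgggttgatat
Reg3a: cccatgacaagggatgaaatacaagaattc
Reg3d: gtgtattctctggggactctggcctaagga
Reg1: ggaccatctatcaaaagcaaattagatcct
Reg2: acagtactcctttgtctgcaagttcagagc
Reg4: gcattgcgctgagatgaaccccaaggataa
Retnlb: aggaggttgagaaaccaatttcaaaatgat
On the array's mm9 annotation 6 of these probes lie within 93.2 kb of chromosome 6. In order along the chromosome they are those of Reg3b (78323323 to 78323382), Reg3d (78325868 to 78325927), Reg3a (78333635 to 78333694), Reg2 (78357959 to 78358018), Reg1 (78378527 to 78378586) and Reg3g (78416420 to 78416479). In the RefSeq gene table (GRCm38.p6) no other protein-coding gene starts between Reg3b and Reg3g. The Retnlb probe lies on chromosome 16 (48818874 to 48818933), and the array gives no position for the Reg4 probe. Exons and untranslated regions of mm9 were not used here.

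Levels are log2 processed spot intensity minus the 75th percentile of the same array, so a level of 0 is that percentile and a step of 1 is a doubling. A level belongs to its own probe and is compared only between arrays. No spot was saturated, and the number of probes well above background was 30485 to 31713 on the doxycycline arrays and 22069 to 23994 on the saline arrays. On the Tnk1 probe toward the 5′ end, doxycycline arrays read 0.64 ± 0.23 and saline arrays -2.15 ± 0.40 (SD, n = 4 each), a 6.92-fold rise (limma adjusted p = 4.16e-04 over all kept probes), while the other Tnk1 probe differed by -0.45 (SE 0.189, adjusted p = 0.143). The ileal markers Fabp6 and Slc10a2, for bile acid binding and uptake, were well above background on all 8 arrays. Some arrays stood apart. Saline 4 had the lowest 75th percentile, 7.56 on the log2 scale against 7.88 to 8.44 on the other 7 arrays, and the lowest mean correlation with its own group (0.970 against 0.974 to 0.980). Saline 3 had far higher signal than any other array for a few genes, Reg1 among them, and saline 2 and 4 differed from saline 1 and 3 for Reg4.

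Of the 8 members, 7 were tested, 1 rose and 0 fell by limma with Benjamini-Hochberg adjustment over 21362 genes at a threshold of 0.05. Of the 7, 2 had an unadjusted p under 0.05 (Retnlb and Reg3a). For all genes tested that share is at least 13.8%, the share called after adjustment. Its exact size was not counted, so unadjusted counts here and below cannot be weighed against it. Over all genes tested 5.94% rose and 7.90% fell, 1268 and 1687 genes, or 1036 and 480 when arrays were not scaled, a setting that moves the median difference of all genes to 0.24. The member that rose was Retnlb. The median log2 difference of the 7 tested members, doxycycline minus saline, was -0.06, beside 0.02 for all genes tested. Their median absolute difference was 0.54 beside 0.35. The groups did not overlap for 1 of the 7 tested members, beside 21.8% of all genes tested. In bulk tissue fewer cells of a type and less RNA per cell cannot be told apart.

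**Figure D1:**
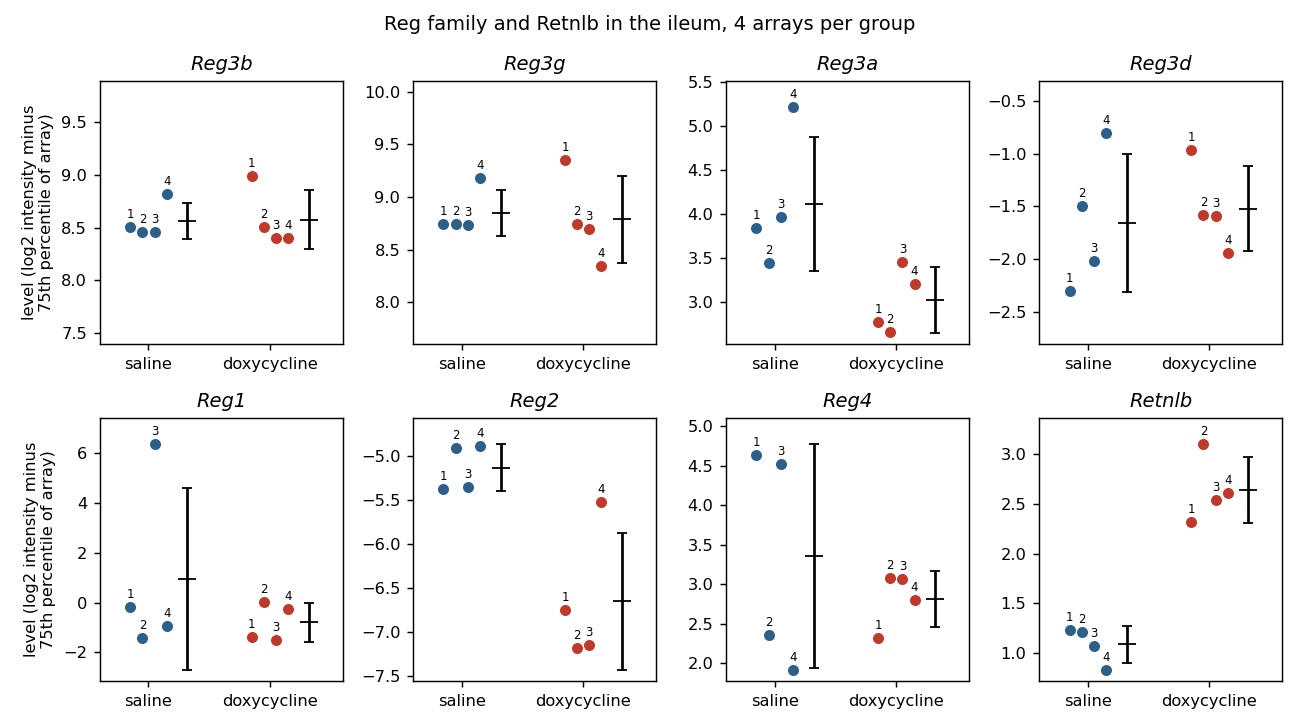
Level of each member on each array (y axis, log2 intensity minus the array's 75th percentile, with a scale of its own in each panel), saline in blue and doxycycline in red. Numbers are replicate numbers, and bars give the mean ± SD of 4 arrays. The 4 doxycycline values of Retnlb all lie above its 4 saline values, Reg3b and Reg3g overlap throughout, and saline 3 stands alone for Reg1.

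Reg3b and Reg3g, the antibacterial lectins of the small intestine, did not pass the test in either direction. Reg3b, which is expressed with Reg3g in the ileal epithelium, read 8.99, 8.51, 8.40 and 8.40 on doxycycline arrays 1 to 4 and 8.50, 8.46, 8.46 and 8.82 on saline arrays 1 to 4. The groups overlapped, with doxycycline 1 and saline 4 the highest of their groups. The difference was 0.01 (SE 0.182, 95% interval -0.40 to 0.43, limma adjusted p = 0.968), so the interval reaches from 0.759-fold to 1.34-fold. Reg3g read 9.35, 8.74, 8.70 and 8.35 with doxycycline and 8.74, 8.74, 8.73 and 9.18 with saline. Here too the groups overlapped and doxycycline 1 and saline 4 were highest. Its difference was -0.06 (SE 0.228, 95% interval -0.58 to 0.45, limma adjusted p = 0.878), or 0.669-fold to 1.37-fold. Neither passed under any of 20 alternative settings, over which Reg3b ranged from -0.12 to 0.24 and Reg3g from -0.25 to 0.16.

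The spots of both genes were very bright. Before scaling, the processed intensity of Reg3b was 84900 to 120200 and that of Reg3g 97780 to 154400. Both belonged to the 100 tested genes with the brightest spots, whose mean intensities ran from 84070 to 188100. Of those 100 genes limma called 0 (6 had an unadjusted p under 0.05), beside 13.8% of all genes tested. Their median absolute difference was 0.09, beside 0.35 for all genes tested, and the largest was 0.87. The scanner's saturation value was 777251, well above the mean signals of Reg3b and Reg3g, which reached 113400 and 136800. Whether such bright spots respond less than in proportion to RNA was not tested. Before scaling, Reg3b read 84900 on saline 4 against 92520 to 109000 on the other saline arrays, while doxycycline 1 was the brightest array for both genes before scaling too (120200 and 154400). The part of the scaling in the saline 4 levels was not tested.

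Reg3b and Reg3g also had similar patterns from array to array, within a small spread. The SD on doxycycline and saline arrays was 0.28 and 0.17 for Reg3b and 0.42 and 0.22 for Reg3g. Genes that vary little are near each other by the measure used here. Doxycycline 1 and saline 4, the highest of their groups for both, had the lowest 75th percentiles (7.88 and 7.56). The part of the scaling in the shared pattern was not tested. With each gene centred on its own mean over the 8 arrays, their patterns differed by a root mean square of 0.121, the smallest of the 21 pairs of tested members, and the next pair, Reg3d and Reg3g, differed by 0.311. Other tested genes were nearer by the same measure: Pbld1 (0.035) was nearest to Reg3b, and Rps21, for a ribosomal protein (0.090), and Ppia, for cyclophilin A (0.091), were nearest to Reg3g.

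The promoters of 3 Reg3 genes are shown because Reg3b and Reg3g had the most similar upstream sequence of the Reg pairs. Whether this bears on their patterns over the arrays was not tested. The 250 bases before each start come from a RefSeq promoter table (GRCm38.p6) in which 7 of the 8 members were matched (not Retnlb). They are written 5′ to 3′ along the gene, with capitals for 3 words of 6 letters: ACCTGA, shared by the 3 windows below; TGCCAA, shared by them as well; and the TATA box word, TATAAA. The first and second were picked after the sequences were seen.
Reg3b (chr6:78370635-78370884, plus strand): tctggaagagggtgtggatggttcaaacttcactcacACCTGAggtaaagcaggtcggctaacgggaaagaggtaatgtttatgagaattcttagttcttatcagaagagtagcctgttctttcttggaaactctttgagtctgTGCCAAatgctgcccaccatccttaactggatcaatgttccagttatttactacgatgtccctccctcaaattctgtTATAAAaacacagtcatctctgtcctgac
Reg3g (chr6:78468875-78469124, minus strand): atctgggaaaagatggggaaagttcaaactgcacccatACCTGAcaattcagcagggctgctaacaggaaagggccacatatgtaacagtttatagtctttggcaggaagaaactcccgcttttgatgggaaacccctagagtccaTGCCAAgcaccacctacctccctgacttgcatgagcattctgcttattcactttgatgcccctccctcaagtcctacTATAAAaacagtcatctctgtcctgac
Reg3a (chr6:78380459-78380708, plus strand): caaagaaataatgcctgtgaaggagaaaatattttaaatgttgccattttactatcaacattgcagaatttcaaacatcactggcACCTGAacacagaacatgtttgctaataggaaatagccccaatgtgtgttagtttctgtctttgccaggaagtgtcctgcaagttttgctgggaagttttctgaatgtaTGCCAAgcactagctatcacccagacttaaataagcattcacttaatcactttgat
In a global alignment the Reg3b and Reg3g windows were identical at 68.9% of positions, the highest of the 21 pairs of Reg promoters, and the next pair, Reg1 and Reg2, at 58.5%. Reg3a and Reg3b were identical at 47.9%. The word ACCTGA began 213 bases before the start of Reg3b and 212 before that of Reg3g, and TGCCAA began 106 and 104 bases before. TATAAA began 29 and 27 bases before. Counted on both strands, ACCTGA was in 5 of the 7 Reg windows and in 12.3% of 32841 RefSeq windows of this length. TGCCAA was in 6 of the 7 and in 12.3% of all windows, and TATAAA in 4 of the 7 and 12.4%. ACCTGA and TGCCAA were picked because windows counted here share them, so their counts cannot be weighed against all windows. The 7 windows belong to related genes and are not independent. The palindrome TTCNNNGAA, a common form of STAT sites, was in 2 of the 7 (Reg3b and Reg3d) and in 7.02% of all windows. Also counted were CACCTG, in 5 of the 7 and 17.2%, and an interferon word, in 0 of the 7 and 2.98%. In Reg3a, Reg3b, Reg3d and Reg4 CACCTG overlaps the picked word ACCTGA. Its count is therefore not a separate one and cannot be weighed against all windows either. Where a word is absent, only these letters are missing from this window.

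Reg3a, a further secreted lectin of the cluster, read lower with doxycycline but missed the threshold. Its levels were 2.76, 2.65, 3.45 and 3.20 on doxycycline arrays and 3.84, 3.44, 3.97 and 5.22 on saline arrays. Saline 4 was the highest array, and the groups overlapped only where doxycycline 3 lay just above saline 2. The difference was -1.10, or 2.14-fold (SE 0.370, 95% interval -1.94 to -0.26), with a limma adjusted p of 0.0796 and a p of 0.0571 by the exact two-sided permutation test. It was called lower in 3 of 20 alternative settings, with no filter on dim probes, with array weights and without saline 2 (limma adjusted p = 0.0463, 0.0481 and 0.0482), and its difference was -0.73 without saline 4. The tested genes nearest to its pattern were Pccb, for a subunit of propionyl-CoA carboxylase (root mean square 0.191), and Aass, for an enzyme of lysine breakdown (0.248). Neither was called, and since they were chosen by nearness over the same arrays this is no separate result. Reg3d, known from pancreatic islets, read -0.97, -1.58, -1.60 and -1.94 with doxycycline and -2.30, -1.50, -2.02 and -0.81 with saline. The groups overlapped over most of their range, and the difference was 0.13 (SE 0.338, 95% interval -0.63 to 0.90, limma adjusted p = 0.822). It ranged from -0.16 with normexp background to 0.64 without saline 2 and 4 and was 0.42 without saline 4, with no call in any of 20 settings.

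Reg1, for a lectin of the exocrine pancreas and upper small intestine, was set by 1 array. It read -1.38, 0.03, -1.53 and -0.28 with doxycycline and -0.18, -1.44, 6.37 and -0.94 with saline. Saline 3 was 146-fold above the mean of the other 7 arrays, which ran from -1.53 to 0.03 and showed no separation by treatment. The difference was -1.74 (SE 1.53, limma adjusted p = 0.477) with all arrays and 0.07 (SE 0.459, adjusted p = 0.947) without saline 3. The 2 tested genes nearest in pattern were Pkd2l2, for a polycystin-family channel, and Lct, for lactase, the milk-sugar enzyme of the upper small intestine. Lct read 3.06 on saline 3, where it was well above background, against -5.25 to -2.57 on the other 7 arrays. Pkd2l2, Reg1 and Lct were also the 3 of 21362 genes for which saline 3 exceeded the next highest array by most, with gaps of 7.24, 6.34 and 5.63, and 14 genes exceeded it by more than 2.

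The list of upper small intestine markers had its highest mean level on saline 3, 1.57 against -0.53 to 0.33 on the other arrays, over 12 tested genes that include Lct. Over the other 11 genes its mean was 1.43, against 0.78 on saline 2, the next highest, and -0.25 to 0.51 on the rest. The list of pancreatic acinar markers had a mean level of 0.46 on saline 3 and -0.08 to 0.53 on the others. Of 26 acinar markers on the array, 6 were not well above background on any array, and these include the digestive enzyme genes Cpa1, Prss1, Prss2, Cela2a and Cela3b and the acinar factor gene Ptf1a. The part of the sampled gut position in the Reg1 value was not tested. Between the groups, 5 of the 12 upper-intestine markers fell and 1 rose (median -0.92), among them the iron exporter gene Slc40a1 (3.56 ± 0.55 on saline arrays against 1.56 ± 0.28, SD, n = 4 each), the iron importer gene Slc11a2 (log2 difference -1.13) and Osr2 (-0.85). Without saline 3 the median was -0.43, with 4 lower and 2 higher calls (the latter Lct and Adh6a), and without scaling 1 of these 12 fell and 1 rose. Lct was well above background on no saline array but saline 3, so its call gives no fold. Reg2, the pancreatic relative of Reg1, was well above background on 0 of 8 arrays and was not tested. Its levels were -7.17 to -5.52 with doxycycline and -5.37 to -4.88 with saline, and these values, 7 of 8 of them surrogate values set by the scanner software, have no order.

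**Figure D2:**
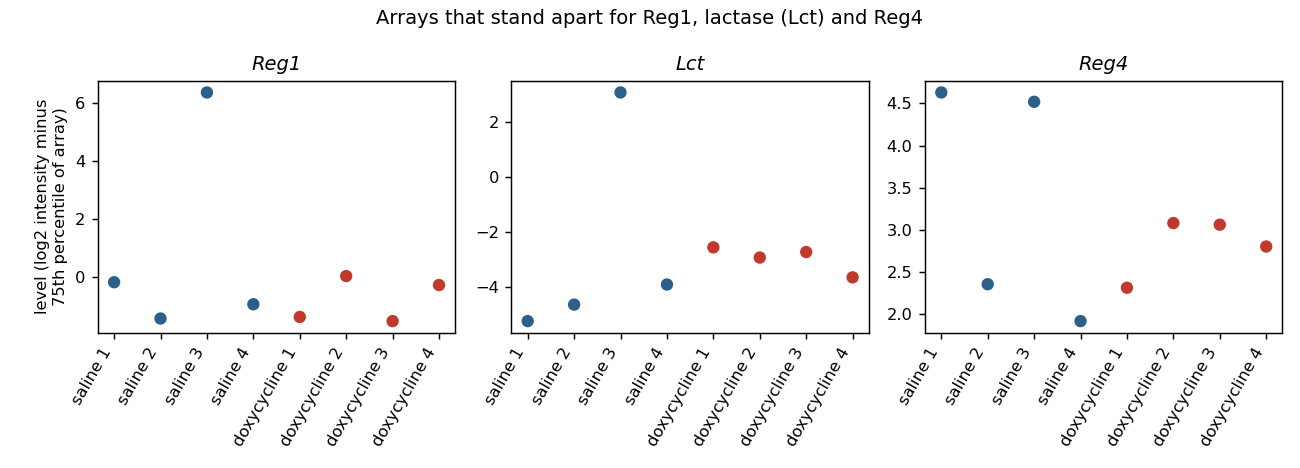
Levels of Reg1, the lactase gene Lct and Reg4 on each of the 8 arrays (y axes, log2 intensity minus the array's 75th percentile), saline in blue and doxycycline in red. Saline 3 reads 6.37 for Reg1 and 3.06 for Lct, far above every other array, and saline 1 and 3 lie above all others for Reg4.

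Reg4, a marker of secretory cells, varied more among saline arrays than between groups. It read 2.31, 3.08, 3.06 and 2.80 with doxycycline and 4.63, 2.36, 4.52 and 1.92 with saline. Saline 1 and 3 lay above every doxycycline array, saline 4 below every one, and saline 2 just above the lowest. Highest and lowest were 6.54-fold apart with saline and 1.70-fold with doxycycline. The difference was -0.54 (SE 0.611, 95% interval -1.92 to 0.84, limma adjusted p = 0.586). Saline 2 and 4 hold the 2 lowest saline values, so leaving out that pair gives a more negative difference by construction (-1.76). Leaving out any single array gave -1.02 to -0.12 and no call. Enteroendocrine markers, a cell class in which Reg4 is expressed, fell in 7 of 22 tested cases and rose in 0 (median -0.94). Without scaling 4 fell. Examples are the granule gene Chga (-1.44, SE 0.217) and the hormone gene Sct, for secretin (-1.57, SE 0.238). The mean level of that list was 1.70 to 1.77 on the 4 saline arrays and 0.57 to 1.17 on the doxycycline arrays, and its part in the Reg4 values was not tested.

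Retnlb rose. It read 2.32, 3.11, 2.54 and 2.61 on doxycycline arrays and 1.23, 1.21, 1.07 and 0.83 on saline arrays. All 4 doxycycline arrays lay above all 4 saline arrays, with a gap of more than 1 between doxycycline 1 and saline 1. The difference was 1.56, or 2.94-fold (SE 0.198, 95% interval 2.16-fold to 4.01-fold). The limma adjusted p was 0.00192, and the exact two-sided permutation test gave 0.0286, the smallest value that 4 against 4 arrays allow. The difference was 1.49 without saline 2 and 4 and 1.55 without saline 3 (limma adjusted p = 0.0192 and 0.00924). Of the 1268 genes that rose, 385 rose by more (30.4%). The tested genes with the nearest pattern were Ctla2a, for an inhibitor of cysteine proteases (root mean square 0.141, difference 1.54), and Osmr, the oncostatin M receptor gene (0.174, difference 1.80). Both were called higher, but nearness was measured over all 8 arrays, with the group difference included. Their calls thus follow from the choice and are no separate result.

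**Figure D3:**
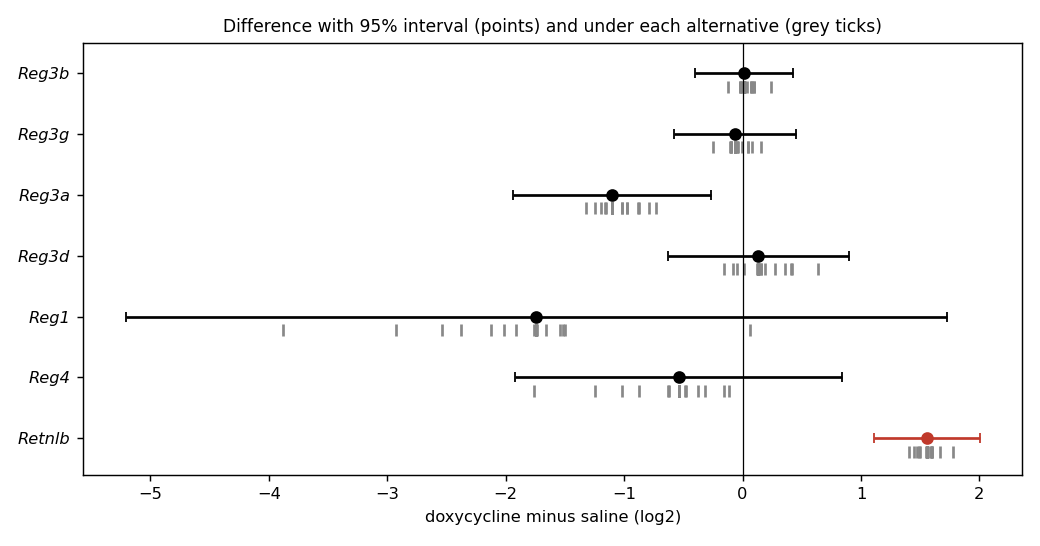
Difference between doxycycline and saline for the 7 tested members (x axis, log2), with points and bars for the value and its 95% interval and grey ticks for the value under each of 20 alternative settings. Retnlb, in red, is the member called; its ticks run from 1.40 to 1.78, and the ticks of Reg3b and Reg3g lie on both sides of 0.

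Retnlb is a goblet cell product, and most other goblet cell markers fell. Of 25 tested goblet markers 20 fell and 0 rose, with a median of -1.37. The 5 not called include Ccl9 (-0.74) and St6galnac1 (0.23), named after their values were seen. In alternative settings 20 fell without saline 2 and 4, 19 without saline 3 and 16 without scaling. The calpain gene Capn9 differed by -2.96 (SE 0.182), Bcas1 by -2.49 (SE 0.181) and the chemokine gene Ccl6 by -2.10 (SE 0.181). The gel-forming mucin gene Muc2, the defining product of goblet cells and chosen after its value was seen, fell from 6.76 ± 0.30 on saline arrays to 4.78 ± 0.16 on doxycycline arrays (SD, n = 4 each). The goblet list's mean level was 2.69 to 3.17 on doxycycline arrays and 4.38 to 4.61 on saline arrays, lower with doxycycline, where Retnlb was higher. Colon and caecum markers, other sites where Retnlb is expressed, fell in 4 of 13 cases and rose in 0 (median -0.46), and the hindgut genes Hoxb13, Hoxd10 and Hoxd11 were below that limit on all 8 arrays. Among those that fell were Cd177 (-1.52) and Mettl7b (-1.47). Cd177 is also the gene that fell on the neutrophil list, and Sycn, which fell here too, is also on the acinar list. Without saline 3, and likewise without scaling, limma called 0 of the 13 (6 and 4 had an unadjusted p under 0.05).

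**Figure D4:**
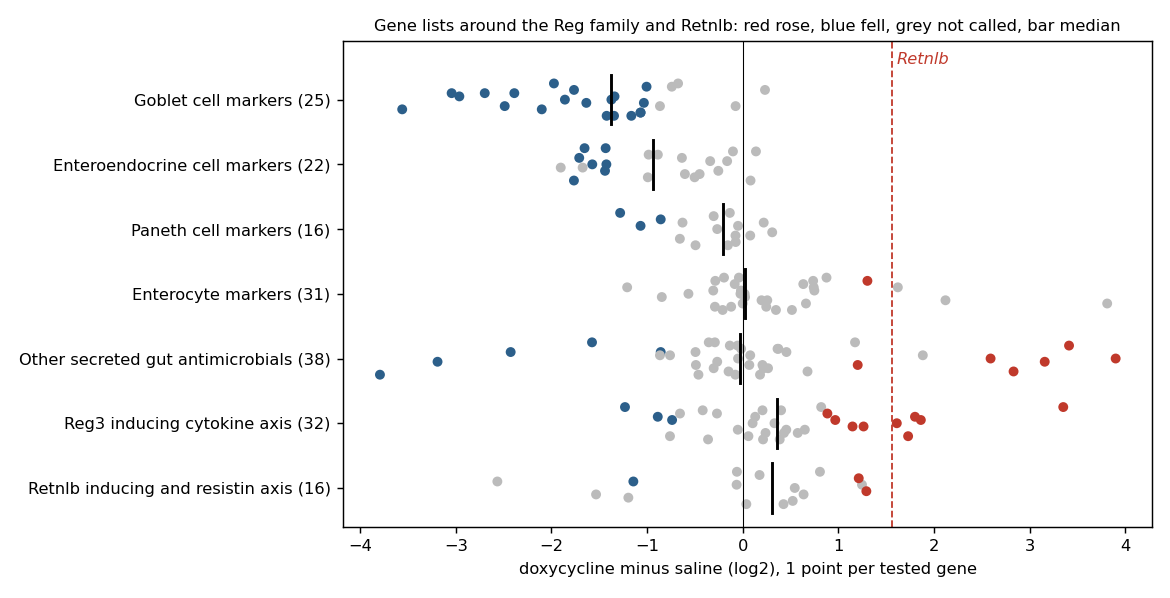
Log2 difference (x axis) of each tested gene in 7 gene lists, with the number tested in brackets; red genes were called higher, blue genes lower, grey genes not at all, and black bars are medians. The dashed line marks Retnlb at 1.56, on the opposite side of 0 from the goblet cell median of -1.37.

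Among genes that act upstream of Retnlb, and its resistin relatives, 2 of 16 tested genes rose and 1 fell (median 0.30). For all genes tested 13.8% were called, so this count is no result about the list. Il4ra, the receptor chain shared by interleukin 4 and interleukin 13, rose by 1.29 (SE 0.169, limma adjusted p = 0.00215). The alarmin gene Il33 rose by 1.21 (SE 0.326, adjusted p = 0.04), a call lost without saline 3, without saline 2 and 4 and without scaling, and Cdx2, a homeobox factor of the intestinal epithelium, fell by 1.14 (SE 0.184, adjusted p = 0.00543). The cytokine genes Il4, Il13 and Il25 were not well above background on any array. Stat6, the factor downstream of Il4ra, differed by -0.06 (SE 0.146, adjusted p = 0.799), and the relatives Retn and Retnla by -2.57 (SE 1.41, adjusted p = 0.250) and -1.53 (SE 0.665, adjusted p = 0.152). These 3 were named after their values were seen. Doxycycline 4 was far the lowest of its group for both relatives. Retn read -3.59 there against 1.67 to 3.91 on the other doxycycline arrays, and Retnla -1.81 against 0.32 to 1.74.

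Upstream of Reg3b and Reg3g, 9 of 32 tested genes of the inducing cytokine pathways passed the test as higher and 3 fell (median 0.36). Among the 28 genes well above background on at least 1 array of each group, 7 rose and 3 fell (median 0.28). The other calls were Il6 and Lif, and Lif has no bound above 1. Over all 32 the calls were 7 and 0 without saline 3 and likewise without saline 2 and 4. Il6, for interleukin 6, did not exceed background clearly on any saline array and passed the filter through the doxycycline arrays alone. Its limma call is therefore not used as support. It rose at least 2.31-fold (measured means -1.62 and -4.97). The bound compares the doxycycline mean with a limit for each saline array, namely the dimmest probe that still counted as above background there, or the Il6 spot itself if brighter. Osmr rose by 1.80 (SE 0.214, adjusted p = 0.00138) and Myd88, the adaptor of Toll-like receptors, by 1.15 (SE 0.173, adjusted p = 0.00422). The following genes of this list were named after their values were seen. Socs3, a target and inhibitor of STAT3, rose by 1.86 (SE 0.418, adjusted p = 0.0216), and Il10rb, a chain of the interleukin 22 receptor, fell by 0.74 (SE 0.204, adjusted p = 0.0437). Il10rb was not called without saline 3, without saline 2 and 4 or without scaling, and Socs3 was not called without saline 3. Il22 itself was likewise dim on the saline arrays, and no fold can be given for it. Il22ra1 differed by 0.13 (SE 0.234, adjusted p = 0.744) and Stat3 by 0.24 (SE 0.140, adjusted p = 0.281). Il17f, Il23a and Il23r stayed below that limit on all 8 arrays. Of 8 genes for the proposed Reg receptor EXTL3 and its glycan partners, 1 rose and 0 fell, beside 13.8% of all genes called. The 1 was Ext1, for a heparan sulphate polymerase, by 0.82 (SE 0.185). Without saline 3, and without saline 2 and 4, limma called 0 of the 8 (2 and 4 had an unadjusted p under 0.05). Extl3 differed by -0.22 (SE 0.153, adjusted p = 0.356), Sdc1 by -0.48 and Egfr by 0.46, none of them called.

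Other secreted defence genes of the gut moved in both directions. Of 38 tested, 6 rose and 5 fell (median -0.03), and 5 rose and 5 fell among the 36 measured in both groups. For this and the following lists, the shares over all genes tested are 5.94% higher and 7.90% lower. Lcn2, for a protein that captures bacterial siderophores, rose by 3.90 (SE 0.322), and Saa3, for a serum amyloid A protein, by 3.16 (SE 0.358). The beta-defensin gene Defb37 fell by 3.19 (SE 0.369). Of 16 Paneth cell markers 3 fell and 0 rose (median -0.21, or 0.01 without scaling), namely Spink4 (-1.07), Sox9 (-1.28) and the pentraxin gene Mptx1 (-0.86, not called without saline 3), while Lyz1, for the Paneth lysozyme and named after its value was seen, differed by -0.27 (SE 0.361). Of 31 enterocyte markers 1 rose and 0 fell (median 0.02), the one being Apob, for the chylomicron apolipoprotein (1.30, SE 0.328), which was not called without saline 3 or without saline 2 and 4. Without saline 3 other members, Slc2a2 and Lct, were called higher, and the median was 0.25, as it was without scaling. Neither of these genes was well above background on any saline array but saline 3, so no fold is given for them. Slc51b (0.66) and Nt5e (0.63), which follow Apob by p with all arrays, were not called. Stem and dividing-cell markers fell in 6 of 19 cases and rose in 0 (median -0.07, or 0.15 without scaling), led by Lgr5 (-1.50), Ascl2 (-2.40) and Olfm4 (-1.68), genes of the crypt base stem cells. Genes of dividing cells on this list, named after their values were seen, were not called, among them Mki67 (0.01), Top2a (0.32) and Ccnb1 (0.46). Of 14 neutrophil markers 6 passed the test as higher and 1 fell (median 0.71), but 2 of the 6, Stfa3 and S100a8, were well above background on no saline array, and Stfa3 has no bound above 1. Among the 11 measured in both groups 4 rose and 1 fell (median 0.61), led by Lcn2 and the lactoferrin gene Ltf (2.83), both also on the secreted defence list. Genes not called include Csf3r (0.25), Elane (0.14) and Retnlg (0.81), named after their values were seen. The mean level of all 14, Lcn2 and Ltf included, was 0.14 to 0.59 on doxycycline arrays and -1.06 to -0.54 on saline arrays. The part of neutrophils in the rises of Lcn2 and Ltf was not tested. Among acinar markers, Bhlha15 (-1.48) and Sycn (-1.04) fell and Gp2, a binder of bacterial fimbriae, was called higher. Only 1 saline array held Gp2 well above background, and the 4 read -3.26, 1.03, -3.07 and -3.00, against 0.76 to 2.51 on the doxycycline arrays, so no exact fold is given. Without saline 3 limma called 0 of the 16 acinar markers (7 had an unadjusted p under 0.05).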

How the data were processed

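RNA from 8 ileum samples, 4 per group, was labelled from 200 ng each. The authors deposited scanner output with linear spot intensity. The submitters' processing notes and the headers name Agilent Feature Extraction 10.7.3.1. Its processed signal is background-subtracted, detrended within the array, and given a stand-in (surrogate) value for spots lost in noise. A further table deposited by the authors is in log2 units. Set against the scanner output, each of its columns was log2 intensity less 1 constant per array (7.56 to 8.44), in the same direction and not centred by gene, which settles all 3 properties. Its column medians were -3.77, -3.92, -3.83 and -3.81 for doxycycline 1 to 4 and -3.97, -3.70, -3.79 and -3.86 for saline 1 to 4. It served as an alternative.

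Control spots and 169 to 259 outlier spots an array were dropped, and repeated spots averaged. Intensities were taken to log2 and each array's 75th percentile subtracted. Probes well above background on at least 4 of 8 arrays were kept (28626 of 55681), and a gene was read through its kept probe with the highest mean, giving 21362 genes. The test was limma's (version 3.58.1, R 4.3.3; lmFit and eBayes, two-sided, Benjamini-Hochberg over all genes, threshold 0.05), tested on simulated data. Single values also had an exact two-sided permutation test. All doxycycline arrays sat in row 1 of the single slide and all saline arrays in row 2: position and treatment cannot be told apart. The number of arrays limits the precision.

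The members and lists were chosen with earlier results of these data known. The text names every member, up to 3 genes with the smallest p per list, and the 2 genes nearest in pattern to each tested member, leaving out clone and predicted names. Not named above were the nearest genes of Reg3d (Lyst and Krt9, 0.202 and 0.217) and Reg4 (Olfr671 and Kcnj13, 0.529 and 0.532). Some genes that this rule picks are not reported here. Other names were chosen after their values were seen, as stated beside them. Alternatives were normexp background (offset 50), quantile normalization, the value table, other filters on dim probes, other uses of several probes, a common floor, array weights, the replicate number as a block, arrays left out and, added after seeing the data, no scaling, lists with arrays left out, list counts over genes measured in both groups, and the upper-intestine list without Lct.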

Additional observations from a re-analysis of the deposited data

Results flagged for a closer look

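Of the 16 sets of 4 values (8 members in each group) 3 held an array far from the other 3 of its group, with its gap to the nearest of them divided by the group's range above Dixon's 95% value. Chance gives such a gap in about 1 set in 20. Saline 3 was high for Reg1 (0.839), saline 4 for Reg3b (0.886) and saline 4 for Reg3g (0.981). Saline 4 also had the lowest 75th percentile, and before scaling its Reg3b and Reg3g intensities, 84900 and 108900, were the lowest of the saline arrays. The part of the scaling in these levels was not tested.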

How the results depend on the processing

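Retnlb was called higher in all 20 alternative settings, with differences of 1.40 to 1.78, and the count of members called higher was 1 in each. The count of members called lower was 0, and it was 2 with no filter on dim probes (Reg3a and Reg2, the latter at -1.52, below background on every array), 1 with array weights (Reg3a), 1 with saline 2 and 4 both left out (Reg4, whose lowest saline values these are), and 0 to 1 over single arrays left out (Reg3a without saline 2). Over all genes, 1268 rose and 1687 fell. With array weights 2929 and 3400 did, with the replicate block 787 and 905, and over single arrays left out 648 to 1541 and 729 to 1870. With no filter on dim probes 11809 fell, and the median difference of all genes was -0.33. With saline 2 and 4 left out 1027 fell, and with no scaling 480 did. The cause was not tested. Replicate numbers did not pair the samples: same-numbered arrays correlated at -0.04 to 0.11 after group means were removed, and under the replicate block Retnlb kept its call (limma adjusted p = 0.0145). Signal over background limits Reg2, Il22, Il6 and Lct, and spot brightness is a limit not tested for Reg3b and Reg3g.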
